A study of Solanum tuberosum with 6 samples.

Results

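KY130 is a potato (Solanum tuberosum) cultivar, and its leaf response to cold stress (CS) is described here from 6 of the 18 RNA-seq libraries of the study. The members were taken by their labels alone. They are the libraries KY130-1, KY130-2 and KY130-3 from leaves kept at 25°C for 12 h, and CS-KY130-1, CS-KY130-2 and CS-KY130-3 from leaves held at -4°C for 12 h. The other 12 libraries are of Atlantic and KY140, with 3 libraries in each of their 2 groups. The published article describes virus-free tissue culture seedlings grown on MS medium for 18 days, naming Atlantic and KY140. KY130 is in the labels but not in the article, and 18 days of culture are recorded for it as well. All samples are labelled wild type. The sample titles and the treatment protocol give -4°C, whereas the treatment tag of the CS-KY130 record reads 12C, and -4°C is used here.

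Below-freezing air puts leaf cells under both low temperature and the risk of ice. In plants under cold, transcription factors of the AP2/ERF family, among others, switch on large groups of protective genes. The phenylpropanoid pathway turns phenylalanine into lignin precursors and flavonoids. Lipoxygenases act on linoleic and linolenic acid, with linolenic acid the source of jasmonate, and glutamate decarboxylase makes GABA from glutamate. These 3 routes hold the genes that the study names, and they are used below to describe KY130.

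Each library held 11047494 to 12501696 counts, and counts were found for between 60017 and 68376 genes in untreated KY130. In CS-KY130-1, CS-KY130-2 and CS-KY130-3 it was 50417, 56550 and 72029, so the treated libraries bracketed the untreated ones at nearly equal depth. Each group has 1 record and 3 numbered count columns. The study's methods give biological replicates for the treatments of Atlantic and KY140 and do not name KY130. No source used here says whether the 3 columns of KY130 came from separate plants or separate exposures, so p-values measure only the spread between these libraries, which may be technical. The files do not pair identifiers with gene names, and a check of the leaf label against marker genes was not made here. In bulk RNA from whole leaves, fewer cells of a type and less RNA per cell cannot be told apart.

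Of the treated libraries, CS-KY130-3 lay closest to the untreated ones. Over 88530 genes, Pearson's r of log2(CPM + 1), where CPM is a count scaled to the same library total, was 0.901, 0.934 and 0.893 between the untreated libraries. CS-KY130-3 had r of 0.904, 0.886 and 0.904 with KY130-1, KY130-2 and KY130-3, a mean of 0.898 against 0.909 among the untreated libraries themselves. With the other treated libraries its r was lower, 0.850 with CS-KY130-1 and 0.882 with CS-KY130-2. CS-KY130-1 had 0.810, 0.832 and 0.800 with the untreated libraries, and CS-KY130-2 had 0.834, 0.843 and 0.829. The treated libraries were also less alike among themselves than the untreated ones. The r of 0.838 between CS-KY130-1 and CS-KY130-2 was below that of either with CS-KY130-3. These are correlations across genes, which are not independent replicates, and they are given as a description.

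**Figure D1:**
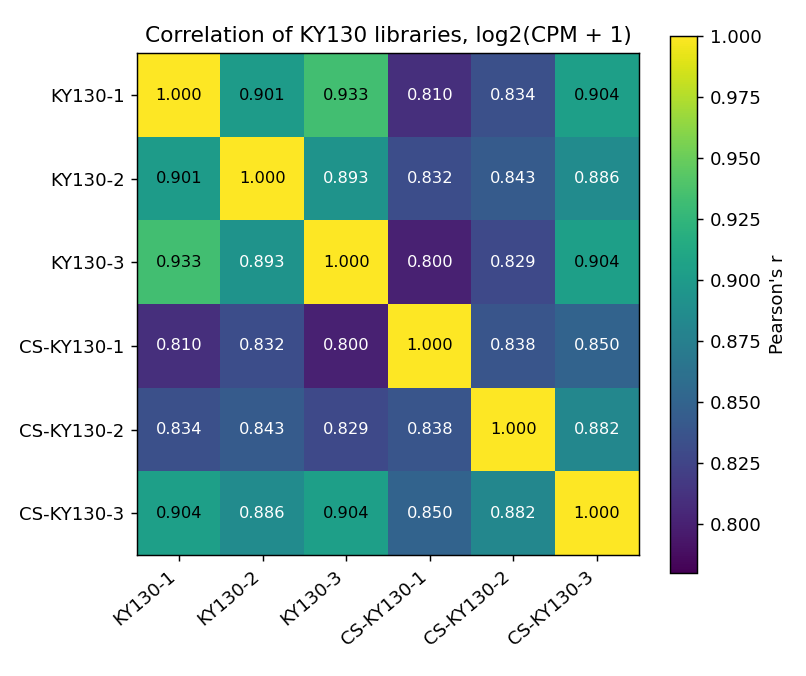
Pearson's r between the 6 KY130 libraries over 88530 genes on log2(CPM + 1), with rows and columns both listing libraries and colour giving r. The row of CS-KY130-3 holds 0.904, 0.886 and 0.904 against the untreated libraries and 0.850 and 0.882 against the treated ones.

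Principal component analysis gave the same order. Component 1, with 39.5% of the variance, placed the untreated libraries at -122, -47.7 and -135. CS-KY130-1 lay at 216, CS-KY130-2 at 109 and CS-KY130-3 at -20.3. The treated libraries did not overlap the untreated ones on this axis, but CS-KY130-3 was nearest to them. The second component, with 23.7% of the variance, separated CS-KY130-1 at -129 from CS-KY130-2 at 187.

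The cultivar label of CS-KY130-3 was checked with genes that mark each cultivar at 25°C, taken as those with at least 5 CPM in every untreated library of a cultivar and at most 0.3 CPM in every untreated library of the others. Of 140 such KY130 genes, 124, 135 and 140 were detected in CS-KY130-1, CS-KY130-2 and CS-KY130-3, at medians of 6.37, 8.42 and 8.11 CPM. Of 636 Atlantic genes, between 8.02% and 14.3% were detected in the treated KY130 libraries, and of 123 KY140 genes between 4.88% and 11.4%, with a median of 0 CPM in every library. The highest shares of both were in CS-KY130-3, which also had the most genes detected of the 6 libraries. The KY130 genes were thus present in all 3 treated libraries, and the label of the cultivar was not contradicted.

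Many genes present at 25°C had no count in a treated library, and this differed among the 3. Of the 36260 tested genes with at least 1 CPM in every untreated library, 4203 had no count in CS-KY130-1, 2283 in CS-KY130-2 and 116 in CS-KY130-3. Of these genes, 1022 were without counts in both CS-KY130-1 and CS-KY130-2 but present in CS-KY130-3. Only 31 were without counts in CS-KY130-1 and CS-KY130-3 alone, and 16 in CS-KY130-2 and CS-KY130-3 alone. The untreated libraries lay between these extremes. Of 30683 genes with at least 1 CPM in every treated library, 484, 761 and 423 had no count in KY130-1, KY130-2 and KY130-3. The part of these missing counts in the results below was not tested.

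More genes were called higher than lower in KY130 after cold. In edgeR's quasi-likelihood test on the 6 libraries, which called a gene at a Benjamini-Hochberg adjusted p under 0.05 and a log2 fold change (log2FC) of 1 or more in size, 411 of 48717 tested genes were higher in CS-KY130, which is 0.844%. Only 41 genes, 0.0842%, were lower, so 90.9% of the differentially expressed genes (DEGs) were higher. The 411 genes made up 1.20%, 1.23% and 1.04% of the counts in the untreated libraries and 6.83%, 7.07% and 6.22% in the treated ones. The 3 treated libraries lay close together in this sum and well above the untreated libraries, CS-KY130-3 being the lowest of them. The 41 lower genes made up 0.630%, 0.618% and 0.681% of the counts at 25°C and 0.168%, 0.177% and 0.193% after cold. Over all tested genes no such lean was seen, with a positive log2FC in 47.0% and a median of -0.07. The sums describe the calls and do not test them, since the same values chose the genes.

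The spread between KY130 libraries was wide, with a biological coefficient of variation of 81.0%. All 3 treated libraries lay above all 3 untreated ones in 4871 tested genes, 10% of the total, and below them in 5125, 10.5%, so such a lack of overlap was common among genes that were not called. At an unadjusted p under 0.05, 5276 genes passed. Without KY130-1 the test called 128 genes higher and 13 lower, without KY130-3 it called 124 and 10, and without CS-KY130-2 132 and 12. Without KY130-2 it called 351 and 19, and without CS-KY130-1 311 and 27. Of the 411 and 41 genes, 103 and 5 were called whichever library was left out.

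The rises were large where they were called. The median log2FC of the 411 genes was 3.16, with quartiles of 2.14 and 5.67, and 221 of them reached at least 3. Among the 41 lower genes the median was -2.17, and 10 fell by at least 3. In 42 of the higher genes no count was found in any untreated library. Their mean after cold ran from 7.38 to 105.9 CPM. Against a floor of 3 counts per library, or 0.246 CPM on average, these genes were at least 30.0-fold to at least 431-fold higher, with a median of at least 57.5-fold. Such genes passed the count filter only through the treated libraries, so the lower ends of these ranges depend on the filter and the call. No lower gene was without counts in all treated libraries.

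By chromosome, the share of tested genes called higher ran from 0.377% on chromosome 11 (12 of 3181) to 1.53% on chromosome 10 (34 of 2224). Chromosomes 2 and 3 held the largest numbers, 58 and 50. The identifiers carry a chromosome copy number as well, and over the 4 numbered copies the share called higher stayed between 0.770% and 1.02%.

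Leaving out CS-KY130-3 changed which genes were called more than how many. On 5 libraries 327 of 53153 genes, 0.615%, were higher and 54, 0.102%, were lower. The calls shared by both fits were 254 higher genes, 61.8% of the 411 and 77.7% of the 327, and 16 lower genes, 39.0% of the 41 and 29.6% of the 54. The 157 higher and 25 lower genes called with 6 libraries alone kept their sign without CS-KY130-3, and all had been tested. At an unadjusted p under 0.05, 9572 genes passed without CS-KY130-3 against 5276 with it.

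**Figure D2:**
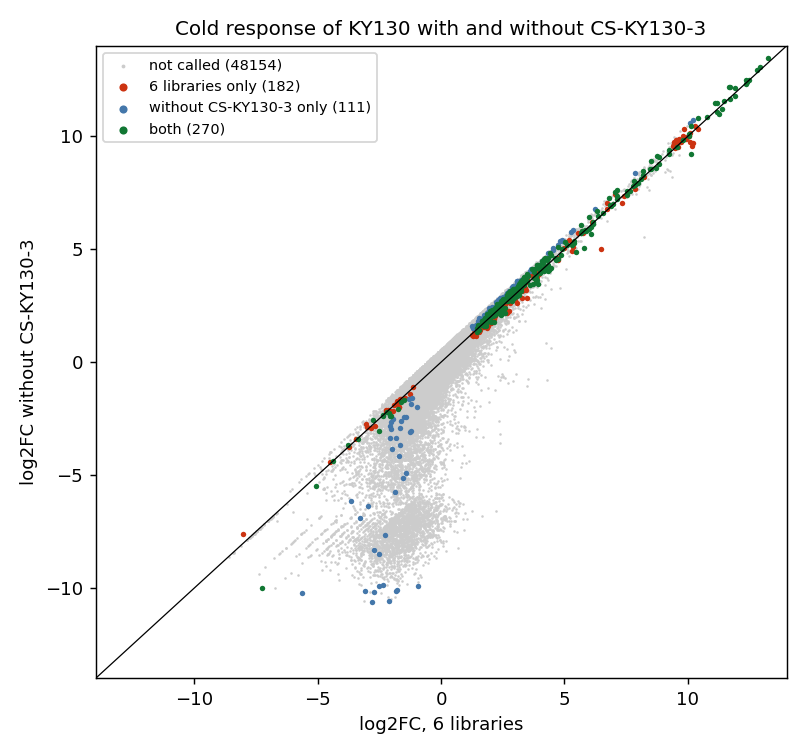
Each point is a gene tested both ways, with its log2FC over the 6 libraries on the horizontal axis and without CS-KY130-3 on the vertical axis. Green points are the 270 genes called both ways, red the 182 called with 6 libraries alone and blue the 111 called without CS-KY130-3 alone, and the line marks equal values. Called genes with a positive log2FC lie along the line, whereas many genes with a negative log2FC lie far below it, where fitted values of genes without counts in CS-KY130-1 and CS-KY130-2 depend on the prior count.

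Among genes called without CS-KY130-3, the lower ones were those that it shared least. Each treated library in turn was set against the genes called from the other treated libraries, as the percent of the way it went from the untreated mean to their mean on log2(CPM + 1). For higher genes the median was 95.2% in CS-KY130-1 (311 genes), 100.3% in CS-KY130-2 (132 genes) and 77.2% in CS-KY130-3 (327 genes). For lower genes it was 100.2% (27 genes), 76.7% (12 genes) and 29.4% (54 genes). CS-KY130-3 therefore went most of the way in the 327 genes called higher without it and much less of it in the 54 called lower without it. In CS-KY130-3, 252 of 327 higher genes and 19 of 54 lower genes went over 50% of the way, and 5 of the 54 did not fall at all. Of the 54, 11 had no count in CS-KY130-1 and CS-KY130-2. These were at a median of 11.9 CPM at 25°C and 5.92 CPM in CS-KY130-3, and 1 of them was called lower with the 6 libraries.

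The 2 higher genes that the naming rule picked had no count at 25°C. The rule took the largest changes among DEGs called with and without CS-KY130-3 and with a mean of at least 10 CPM. Soltu.Atl.02_3G013140, on chromosome 2, was at 0 in all 3 untreated libraries and at 162, 85.9 and 70.2 CPM in CS-KY130-1, CS-KY130-2 and CS-KY130-3. It was at least 431-fold higher (edgeR adjusted p = 0.000739, and 0.00616 without CS-KY130-3). Soltu.Atl.02_2G012870, also on chromosome 2, went from 0 in every untreated library to 102.5, 87.6 and 67.0 CPM. It was at least 349-fold higher (adjusted p = 0.000391, and 0.00487 without CS-KY130-3). In both genes CS-KY130-3 was the lowest of the treated libraries and far from the untreated ones. No annotation used here gives either a function.

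The 2 lower genes were both on chromosome 3. Soltu.Atl.03_4G007880 was at 24.2, 33.0 and 29.9 CPM at 25°C and at 1.31, 1.55 and 1.26 CPM after cold. Its log2FC was -4.39 ± 0.45 (SE, adjusted p = 0.00272) and -4.37 without CS-KY130-3 (adjusted p = 0.0159). Soltu.Atl.03_2G010620 was at 210, 187 and 243 CPM and then at 15.5, 18.7 and 12.2 CPM. Its log2FC was -3.79 ± 0.28 (adjusted p = 0.000423) and -3.68 without CS-KY130-3 (adjusted p = 0.00514). In both, the treated libraries lay close together and CS-KY130-3 was the lowest. That these genes were called without CS-KY130-3 was part of the rule.

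Some genes that rose in KY130 lay in runs of neighbours. Of the 386 higher genes with a chromosome copy in their identifier, 96, or 24.9%, had another higher gene within 10 steps of the identifier numbering on the same copy, against 8.16% of the tested genes that were not called higher. Runs of at least 5 such genes were looked for after the calls were known, and they are given as a description. There were 5, with 36 called genes, on chromosome 2 (copies 2, 3 and 4) and chromosome 3 (copies 1 and 4). Summed over all annotated genes of the 5 runs, the level was 38.1, 50.6 and 24.2 CPM at 25°C and 6940, 6500 and 6586 CPM after cold, a ratio of means of 177. In CS-KY130-3 the sum was close to those of CS-KY130-1 and CS-KY130-2. CS-KY130-3 was among the libraries that called the genes, so the sums describe the runs and do not test them. The genes of the runs held 0.630% of all counts after cold, as a mean of the 3 libraries.

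On chromosome 2, copy 4, all 9 annotated genes of the run were called higher. Their summed level was 7.25, 8.55 and 9.94 CPM in the untreated libraries and 2285, 2077 and 2045 CPM in the treated ones. Copy 3 had all 6 genes of its run called, with 8.78, 16.6 and 1.96 CPM rising to 2120, 1443 and 1724 CPM. Copy 2 had 7 of 10, with 9.21, 12.2 and 5.24 CPM rising to 998, 903 and 770 CPM. The named genes Soltu.Atl.02_3G013140 and Soltu.Atl.02_2G012870 lie in the runs of copies 3 and 2. Each run was lower at 25°C than after cold in every library, by 100 to 249 times as a ratio of means. Since the copies may be near-identical in sequence and the handling of shared reads is not given in the sources used here, the values of a single copy are uncertain.

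The 2 runs of chromosome 3 also rose in every treated library. On copy 1, 8 of 10 genes were called, and the sum went from 1.36, 0.0822 and 1.17 CPM to 340, 491 and 683 CPM. On copy 4, 6 of 10 genes were called and 8 were tested, and the sum went from 11.5, 13.2 and 5.87 CPM to 1198, 1585 and 1364 CPM. CS-KY130-3 reached 164% of the mean of the other treated libraries on copy 1 and 98.0% on copy 4, against 81.0%, 96.8% and 93.8% in the runs of chromosome 2. These percentages are a description, since CS-KY130-3 helped to choose the genes. Without CS-KY130-3 the runs kept 6, 6 and 8 called genes on chromosome 2 and 5 and 4 on chromosome 3. The called genes of the runs were looked up in the other cultivars as well. In Atlantic 7 of 7, 6 of 6, 9 of 9, 1 of 3 and 6 of 6 tested genes were called higher, and in KY140 6 of 7, 5 of 6, 8 of 9, 3 of 3 and 5 of 5, beside 5.79% of all tested genes in Atlantic and 0.886% in KY140.

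**Figure D3:**
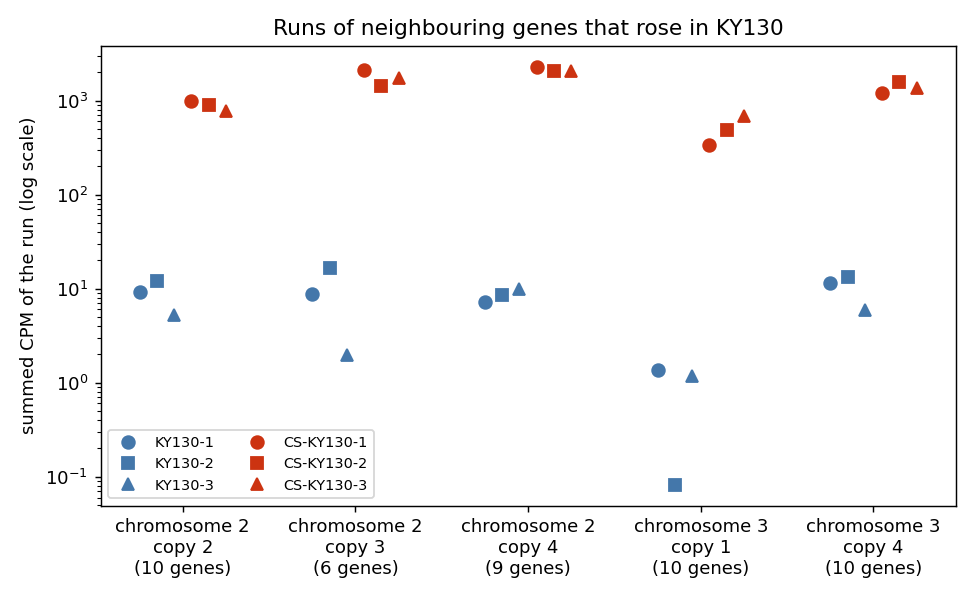
Summed CPM, on a log scale, of all annotated genes in each run of neighbouring higher genes, with 1 point per KY130 library. The summed level was between 0.0822 and 16.6 CPM in untreated libraries (blue) and between 340 and 2285 CPM in treated libraries (red), CS-KY130-3 (red triangles) included. The runs were found from genes called with all KY130 libraries, so the gap is a description.

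The 12 genes that the study names by identifier mostly pointed upward in KY130, but few passed the test. They were chosen by the study on Atlantic and KY140, not on KY130. The log2FC was positive in 11 of 12, with a median of 1.11 against -0.07 over all tested genes. None was called higher by edgeR and 1 was called lower, beside 0.844% and 0.0842% of all tested genes. Without CS-KY130-3, 1 was called higher and none lower, with a median of 1.22, and DESeq2 called 2 higher and 1 lower on the 6 libraries. At an unadjusted p under 0.05, 5 of the 12 passed, against 10.8% of all tested genes. In 4 of the 12 there was no overlap between treated and untreated libraries, and over all tested genes 10% lay wholly above and 10.5% wholly below.

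Phenylalanine ammonia-lyase opens the phenylpropanoid pathway. StPAL (Soltu.Atl.09_2G005110) was at 4.69, 2.88 and 7.43 CPM at 25°C and at 3.55, 16.9 and 16.0 CPM after cold. CS-KY130-1 lay within the untreated libraries and the other treated libraries above them, with a log2FC of 1.28 ± 0.72 (adjusted p = 0.632) and 0.98 without CS-KY130-3.

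Cinnamate 4-hydroxylase, the CYP73A enzyme, carries out the next step. StCYP73A Soltu.Atl.06_4G021450 was at 77.5, 138.8 and 79.3 CPM and then at 283, 148 and 133 CPM. Its log2FC was 0.93 ± 0.37 (adjusted p = 0.382), 1.11 without CS-KY130-3 and 0.52 without CS-KY130-1, and KY130-2 lay above CS-KY130-3. StCYP73A Soltu.Atl.06_4G021440 was at 16.1, 40.3 and 14.9 CPM and then at 76.0, 46.0 and 20.5 CPM, with a log2FC of 1.00 ± 0.54 (adjusted p = 0.606). This became 1.34 without CS-KY130-3, 1.61 without KY130-2 and 0.49 without CS-KY130-1. These neighbours on chromosome 6 shared an order, with CS-KY130-1 highest and KY130-2 above the other untreated libraries. StCYP73A Soltu.Atl.06_1G015640 was at 3.92, 5.18 and 4.93 CPM and then at 4.396, 5.51 and 9.86 CPM, so only CS-KY130-3 stood clearly above the untreated range. Its log2FC was 0.49 ± 0.69 (adjusted p = 0.905), and 0.05 without CS-KY130-3.

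4-Coumarate:CoA ligase activates the hydroxycinnamic acids made in these steps. St4CL (Soltu.Atl.03_3G030960) was at 2.98, 9.45 and 4.15 CPM at 25°C and at 44.7, 53.0 and 7.98 CPM after cold. CS-KY130-1 and CS-KY130-2 lay far above the untreated libraries, while CS-KY130-3 lay among them. The log2FC was 2.67 ± 0.73 (adjusted p = 0.168) and 3.12 ± 0.53 without CS-KY130-3 (adjusted p = 0.0606), and DESeq2 gave an adjusted p of 0.00751 on the 6 libraries.

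Caffeoyl shikimate esterase acts in the making of lignin precursors, and StCSE (Soltu.Atl.04_4G005370) was the one gene of the 12 that passed the test. It fell from 225, 197 and 266 CPM to 81.9, 75.4 and 88.9 CPM, with no overlap and little spread among the treated libraries. The mean went from 229.6 ± 34.7 to 82.1 ± 6.75 CPM (SD, n = 3 and 3). Its log2FC was -1.48 ± 0.23 (SE, adjusted p = 0.0215). Without CS-KY130-3 it was -1.58 (adjusted p = 0.0524), and the call was also lost without KY130-1 (0.144), KY130-3 (0.127), CS-KY130-1 (0.0584) or CS-KY130-2 (0.131), with log2FC between -1.58 and -1.38.

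The 13-lipoxygenase StLOX2S (Soltu.Atl.03_0G008370), of the type that starts jasmonate synthesis in chloroplasts, was near the limit of detection at 25°C with 1.11, 0.493 and 0.0783 CPM. After cold it was at 4.396, 3.58 and 4.39 CPM, all above the untreated libraries. Its log2FC of 2.86 ± 1.28 did not pass (adjusted p = 0.471), and it was 2.78 without CS-KY130-3. StLOX1_5 (Soltu.Atl.01_4G023960), a linoleate lipoxygenase in the study, was at 8.70, 3.62 and 13.8 CPM and then at 37.5, 14.1 and 26.1 CPM. The groups did not overlap, but CS-KY130-2 lay just above KY130-3, and the log2FC was 1.57 ± 0.57 (adjusted p = 0.334) and 1.52 without CS-KY130-3.

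Allene oxide cyclase makes the cyclic precursor of jasmonate. StAOC (Soltu.Atl.02_2G023780) was at 17.1, 5.26 and 11.2 CPM and then at 20.9, 41.4 and 15.9 CPM. CS-KY130-3 lay below KY130-1, and the log2FC was 1.22 ± 0.55 (adjusted p = 0.471), 1.43 without CS-KY130-3 and 0.72 without CS-KY130-2.

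OPCL1 is a CoA ligase that feeds the precursor into the shortening of its side chain. StOPCL1 Soltu.Atl.12_2G005410 was at 10.998, 15.1 and 12.99 CPM at 25°C and at 46.9, 74.8 and 21.8 CPM after cold. The groups did not overlap and CS-KY130-3 was the lowest of the treated libraries. The log2FC was 1.87 ± 0.45 (adjusted p = 0.119) and 2.19 ± 0.34 without CS-KY130-3, where it passed (adjusted p = 0.0486). DESeq2 gave an adjusted p of 0.00719 on the 6 libraries. StOPCL1 Soltu.Atl.12_3G004550 was at 28.0, 13.3 and 30.5 CPM and then at 23.7, 50.4 and 49.0 CPM. CS-KY130-1 lay within the untreated range, and the log2FC was 0.78 ± 0.43 (adjusted p = 0.611), 0.58 without CS-KY130-3 and 0.49 without KY130-2.

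Glutamate decarboxylase makes GABA. StGAD (Soltu.Atl.11_3G000340) was at 17.3, 37.7 and 16.6 CPM and then at 31.1, 46.7 and 50.7 CPM. KY130-2 lay above CS-KY130-1, and the log2FC was 0.84 ± 0.40 (adjusted p = 0.517), 0.68 without CS-KY130-3 and 1.34 without KY130-2.

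**Figure D4:**
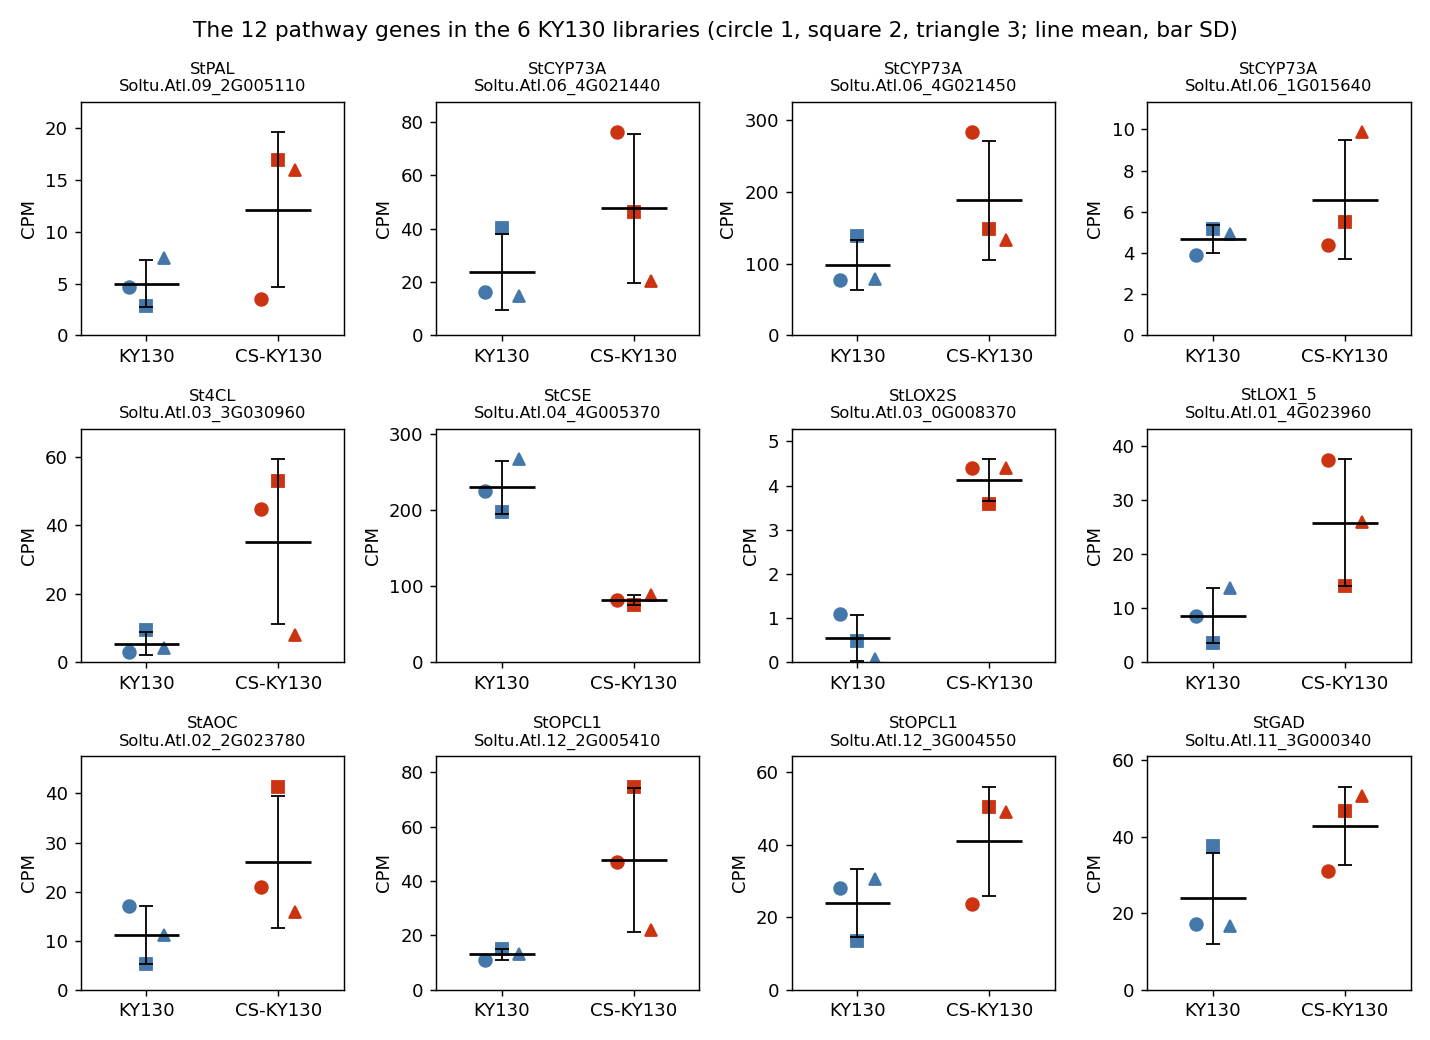
CPM of the 12 named genes in the 6 KY130 libraries, 1 panel per gene with its own axis from 0, blue for 25°C and red for -4°C. Circles, squares and triangles are libraries 1, 2 and 3, horizontal lines are means and bars are SD (n = 3). StCSE falls in every treated library, and in St4CL the treated triangle (CS-KY130-3, 7.98 CPM) lies with the untreated points.

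The size of the log2FC of these genes was smaller in KY130 than in Atlantic for 12 of 12 and than in KY140 for 10 of 12. Without CS-KY130-3 it was 10 of 12 in each case. The study chose these genes for their change in Atlantic and KY140, so their sizes there are not independent of the choice. The difference itself was tested as an interaction of treatment and cultivar, and none of the 12 passed against either cultivar, with 5 against Atlantic and 0 against KY140 at an unadjusted p under 0.05 (8.69% and 6.97% of all tested genes), and 1 and 0 by DESeq2. For Soltu.Atl.06_1G015640 the response of KY130 was lower than that of Atlantic by a log2 difference of -2.20 (edgeR adjusted p = 0.149), and by -2.64 without CS-KY130-3, where it passed (adjusted p = 0.0230).

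The medians of genes called in the other cultivars leaned the same way in KY130, and a part of these genes passed the test there. The genes come from libraries that KY130 does not share, so KY130 was not used to call them. The count filter on the KY130 libraries did decide which of them were tested in KY130. A gene without counts in untreated KY130 passed it only through the treated libraries, and the reverse held for a gene without counts after cold. The filter can thus raise the shares and enlarge the medians given for the KY140 and Atlantic genes, and its part was not tested. Of the 425 genes that rose in KY140 (0.886% of those tested there), 355 were tested in KY130, and their median difference from the untreated KY130 mean on log2(CPM + 1) was 2.34, 2.42 and 2.19 in CS-KY130-1, CS-KY130-2 and CS-KY130-3. Over all tested genes these medians were -0.22, -0.07 and 0.05. CS-KY130-3 thus rose nearly as far as the other treated libraries in these genes. KY130 called 129 of the 355 higher, 36.3% against 0.844% of all tested genes, and 98.3% had a positive log2FC. Calls depended on level, since 2.68% of tested genes at 17.8 CPM or more were called higher and 0% of those up to 2.61 CPM. The 355 genes were not matched for level. Without CS-KY130-3, KY130 called 99 of 358, or 27.7%, against 0.615% of all tested genes.

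In the genes that rose in Atlantic, CS-KY130-3 went less far than the other treated KY130 libraries. Of 3347 such genes (5.79% of those tested in Atlantic) 2534 were tested in KY130, with median differences of 1.33, 1.30 and 0.73 in CS-KY130-1, CS-KY130-2 and CS-KY130-3. KY130 called 277 of them higher, or 10.9%, against 0.844% of all tested genes. Their median log2FC was 1.28 in KY130 (1.40 without CS-KY130-3) and 2.19 in Atlantic, the latter being a value that chose the genes. Without CS-KY130-3, 264 of 2643, or 9.99%, were called higher, against 0.615% of all tested genes.

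Genes that fell in Atlantic also differed among the treated libraries. These were 1332 genes, 2.31% of those tested in Atlantic. Over the 1050 tested in KY130, the median difference was -0.95 in CS-KY130-1, -0.65 in CS-KY130-2 and -0.27 in CS-KY130-3. KY130 called 16 of them lower, or 1.52%, and 2 higher, beside 0.0842% and 0.844% of all genes tested in KY130. Without CS-KY130-3, 15 of 1079 were called lower and 2 higher, beside 0.102% and 0.615% of all tested genes. In the 69 tested genes of the 76 that fell in KY140 (0.158% of those tested there) the medians were -0.95, -0.97 and -1.08, so there CS-KY130-3 was not set apart. KY130 called 6 of them lower and 1 higher, or 8.70% and 1.45%. Without CS-KY130-3 it called 3 and 2 of 70, or 4.29% and 2.86%. The shares over all tested genes are those given above.

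**Figure D5:**
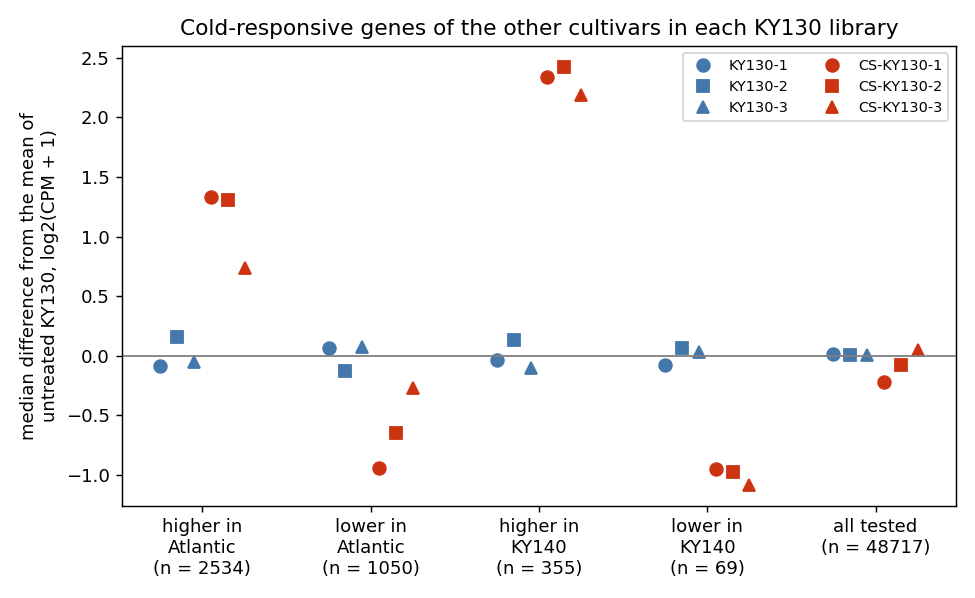
Median difference of each KY130 library from the mean of the untreated KY130 libraries, on log2(CPM + 1). It is taken over genes called higher or lower by cold in Atlantic or KY140 that passed the KY130 count filter, and over all 48717 tested genes. CS-KY130-3 (red triangles) lies with the other treated libraries for the KY140 genes, at 2.19 and -1.08, and nearer to 0 for the Atlantic genes, at 0.73 and -0.27.

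Seen from KY130, 277 of its 411 higher genes were also called higher in Atlantic, which is 67.4% of the KY130 genes and 8.28% of the Atlantic genes, where 5.79% of all tested genes were higher in Atlantic. In KY140 it was 129, or 31.4% of the KY130 genes and 30.4% of the KY140 genes, where 0.886% of all tested genes were higher. Both cultivars called 108 of them, and 80 that were tested in both were called in neither. The sign of the log2FC was shared by 382 of the 401 tested in Atlantic and 334 of the 345 tested in KY140. Of the 41 lower genes, 16 were also lower in Atlantic and 6 in KY140, beside 2.31% and 0.158% of all tested genes. Across all genes tested in KY130 and another cultivar, Pearson's r of the log2FC was 0.467 with Atlantic (41839 genes) and 0.411 with KY140 (34240 genes), and 0.350 and 0.259 without CS-KY130-3, as a description over genes.

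A few higher genes of KY130 were called in the opposite direction elsewhere, and they were singled out after their values were seen. Soltu.Atl.06_2G004220, on chromosome 6, was at 43.2, 21.1 and 30.0 CPM at 25°C and at 239.9, 192.1 and 102.5 CPM after cold. CS-KY130-3 was the lowest treated library and still above every untreated one. Its log2FC was 2.50 in KY130 (edgeR adjusted p = 0.0228, and 2.74 with 0.0241 without CS-KY130-3), -2.12 in Atlantic (adjusted p = 0.000705) and -2.42 in KY140 (adjusted p = 0.0160). The interaction was 4.68 against Atlantic (adjusted p = 0.00501) and 4.88 against KY140 (adjusted p = 0.0398).

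Soltu.Atl.12_1G002950, on chromosome 12, was at 52.9, 24.7 and 40.6 CPM and then at 133, 140 and 147 CPM, with CS-KY130-3 the highest. Its log2FC was 1.83 in KY130 (adjusted p = 0.0326) and -2.06 in Atlantic (adjusted p = 0.0412). The call in KY130 was lost without CS-KY130-3 (1.75, adjusted p = 0.0922), and the interaction against Atlantic did not pass (3.94, adjusted p = 0.0620).

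Over all genes, the response of KY130 differed from that of Atlantic in 28 of 67423, or 0.0415%, by the interaction test at an adjusted p under 0.05. It was larger in KY130, in the signed sense, for 17 and smaller for 11. Of the 17, 10 were genes that fell in Atlantic and 4 were genes that rose in both cultivars and rose further in KY130. Of the 11, 10 were genes that rose in Atlantic. Without CS-KY130-3 the test called 529 of 72891 genes, 0.726%, with 116 larger and 413 smaller in KY130, and the 28 were all among them. Other libraries moved the count too, to 60 without CS-KY130-1, 13 without KY130-1, 15 without Atlantic-2, and 17 without Atlantic-3, CS-Atlantic-2 or CS-Atlantic-3.

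Against KY140 the interaction passed for 1 of 64732 genes, 0.00154%, namely Soltu.Atl.06_2G004220, and 4509 genes passed at an unadjusted p under 0.05. Without CS-KY130-3 it passed for 17 of 70172, or 0.0242%, and without KY140-2 for 162, and with any other library left out for 0, where 3655 to 4496 genes had an unadjusted p under 0.05. DESeq2 called 339 genes in this comparison and 1038 against Atlantic.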

How the data were processed

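Poly(A)-enriched RNA from leaves was sequenced by a service provider. The authors deposited a table of raw counts per gene, 114281 genes by 18 libraries, of which 24264 carry a number only. Identifiers follow a gene annotation made for Atlantic. The sources used here do not name the aligner, the counter, the genome build or the handling of reads shared between chromosome copies. No identifier matched the names of the RefSeq gene table, so roles were given only to the 12 genes that the study names.

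Counts were analysed in R 4.3.3 with edgeR 4.0.16 on the 6 KY130 libraries alone: filterByExpr (minimum count 10), TMM scaling, glmQLFit and glmQLFTest without covariates. DEGs had a Benjamini-Hochberg adjusted p under 0.05 and a log2FC of 1 or more in size. CPM values used the TMM-scaled totals, except in the check of the cultivar label. That check, the correlations, the principal components and the shares of counts used the raw totals. A pseudocount of 1 was added on the log2 scale. Atlantic and KY140 were fitted in the same way, each on its own 6 libraries. Differences between cultivars were tested as the interaction of treatment and cultivar on 12 libraries, with no fold threshold. DESeq2 1.42.0, other scalings and filters, a joint fit, a replicate block and the omission of each library were the alternatives. The tests were tried on simulated data first.

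Named were the 12 genes of the study, and the 2 DEGs with the largest rise and the 2 with the largest fall among those called with and without CS-KY130-3 at a mean of at least 10 CPM. Members and lists were chosen with earlier results of these data known. Totals of 11047494 to 12501696 counts per KY130 library limit the precision, and floors of 3 counts cover counting error only.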

Additional observations from a re-analysis of the deposited data

Results flagged for a closer look

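The response to cold differed between KY130 and Atlantic in 28 of 67423 genes by the interaction term of edgeR (adjusted p under 0.05), 17 with a larger and 11 with a smaller signed response in KY130. It differed between KY130 and KY140 in 1 of 64732 genes, Soltu.Atl.06_2G004220, which rose in KY130 and fell in both other cultivars. Both counts are drawn to attention because the difference itself was tested. Without CS-KY130-3 they were 529 and 17, with 116 larger and 413 smaller against Atlantic, and with DESeq2 1038 (513 larger and 525 smaller) and 339. Against KY140 no gene passed with the replicate block or with any library other than CS-KY130-3 and KY140-2 left out, where 3655 to 4496 genes had an unadjusted p under 0.05, so the call of Soltu.Atl.06_2G004220 was lost there.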

How the results depend on the processing

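The 411 higher and 41 lower genes of KY130 became 1406 and 289 with no filter on low counts and 1647 and 437 with DESeq2, which called all 411 and all 41 among them. The joint fit of 18 libraries gave 125 lower genes, and 591 higher. RLE and upper quartile scaling gave 421 and 385 higher genes. Leaving out 1 library at a time gave 124 to 351 higher and 10 to 54 lower genes. The share of higher genes among calls was 90.9%, and 79.0% with DESeq2, 82.5% in the joint fit and 83.0% with no filter. The 28 genes against Atlantic became 1038 with DESeq2 and ran from 13 to 529 with 1 library left out, and the 1 gene against KY140 became 339 and ran from 0 to 162. The cause was not tested. Higher genes outnumbered lower ones under every alternative, and each of the 12 named genes kept its sign. The balance of the interaction genes turned: against Atlantic 17 were larger and 11 smaller in KY130, with DESeq2 513 and 525, and without CS-KY130-3 116 and 413. Against KY140 the 1 gene was larger, whereas DESeq2 gave 136 and 203, and the fits without CS-KY130-3 and KY140-2 gave 4 and 13, and 8 and 154.

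No source used here says whether the numbers 1 to 3 pair the libraries. Deviations of same-numbered libraries had r of -0.07, 0.04 and 0.20, and other pairs ran from -0.25 to 0.17. These values cannot decide it, since deviations from a mean of 3 libraries depend on each other. With the replicate block, 349 higher and 29 lower genes were called, 4 genes differed from Atlantic and 0 from KY140, where 3765 had an unadjusted p under 0.05.

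Of 156 alternative values for the 12 named genes, 144 kept their side of the threshold, 6 passed it (St4CL and StOPCL1 Soltu.Atl.12_2G005410) and 6 no longer did (StCSE). CS-KY130-3 stayed nearer to the untreated than to the other treated libraries with Spearman's correlation (mean 0.827 against 0.767), with genes of at least 10 counts (0.835 against 0.798) and with a pseudocount of 0.1 (0.843 against 0.796). A biological coefficient of variation of 81.0% limits what 3 libraries a group can show.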

Other observations

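Genes at 10 or more times the level of every other library of their group, with at least 100 counts, numbered 147 in CS-KY130-1, 101 in CS-KY130-2 and 215 in CS-KY130-3, and 93, 124 and 132 in KY130-1, KY130-2 and KY130-3. Genes missing in the same way, with every other library of the group at 10 or more times their level, numbered 323, 107 and 52 in the treated and 38, 175 and 34 in the untreated libraries. CS-KY130-1 thus had the most genes missing alone and CS-KY130-3 the most present alone.

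Genes that carry a number only gave 15 higher and 6 lower of 3780 tested genes, 0.397% and 0.159%, and genes on unplaced scaffolds 10 and 4 of 1881.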
